A study of Mus musculus with 8 samples.

Results

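The expression of 10 genes that set or read cell fate in the organ of Corti was examined in cochlear RNA of WT mice and of mice lacking miR-29a (miR-29a KO). The genes were picked by symbol from the 21895 genes of the deposited expression table, and each symbol matched 1 row. Pou4f3, Gfi1, Atoh1 and Barhl1 are transcription factors of hair cells. Sox2, Prox1, Fgfr3 and Lgr5 are markers of supporting cells and their progenitors. Jag1 and Notch1 are a ligand and a receptor of the Notch pathway. Mice of the miR-29a-deficient strain, on a C57BL/6 background, carry the deletion in every cell from the germ line on, and both WT and KO came from crosses of heterozygotes, and no other allele or agent is named for either group. An age of 21 days is given in the series record and an age of 2 months in the methods, for both genotypes alike. RNA of the whole cochlea, not of the sensory epithelium alone, was sequenced after removal of ribosomal RNA in 8 strand-specific libraries, 4 per genotype, named here by genotype and replicate number (WT1, KO1 and so on). The labels do not say which animals gave each library, so p-values measure only the spread between these libraries, which may be technical in part.

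In the developing cochlea, a field of Sox2-positive prosensory cells gives rise to both hair cells and supporting cells. Atoh1 starts the hair cell program, and Pou4f3, Gfi1 and Barhl1 act after it and are needed for hair cells to survive. The nascent hair cell presents Notch ligands to its neighbours, where the Notch receptor is cut. The inner part of the receptor moves to the nucleus, joins Rbpj there and switches on Hes and Hey genes, which repress Atoh1. The neighbours become supporting cells. Jag1 acts earlier in the prosensory field and is kept by supporting cells later. In the mature cochlea, Atoh1 is largely silent and both cell types are a small share of the tissue.

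The 8 libraries differed in ways that touch these genes. Values were FPKM, fragments divided by transcript length and by the library's mapped fragments, and held no read counts. From the smallest steps between low values, in which 58.9% to 67.0% of values came within 0.1 of a whole number of fragments, each library was estimated to hold 21600000 to 26700000 fragments. The cochlear origin showed in the hair cell markers, of which 18 of 18 reached a mean of 0.5 FPKM and none was listed at 0 in any library. Their summed FPKM was 196 to 595 in WT and 296 to 504 in KO, lowest in WT1 and highest in WT3. Pvalb (46.7 to 209 FPKM) and Calb2 (90.0 to 292 FPKM), which neurons express too, made up most of this sum in every library. Summed over 10 genes of neutrophils and their marrow precursors, FPKM was 9539 in WT1, 51.8 in WT3, 671 in WT2 and 916 in WT4, and 1692 to 5128 in KO. Of 8 genes of the B cell lineage, 5 rose in KO at an unadjusted limma p-value under 0.05 and 0 at the adjusted one, against 4.61% of all tested genes called higher, with sums of 1.82 to 47.4 in WT and 33.6 to 92.8 in KO. A list of 9 genes of cerebellar granule neurons, drawn up after values had been seen, had sums of 80.5 to 189 in WT2, WT4 and KO4 and of 7.73 to 28.4 in the other 5 libraries. In bulk tissue, fewer cells of a type and less RNA per cell cannot be told apart. No value for miR-29a itself was analysed here, and the genotypes stand as labelled, unchecked.

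The mature miRNA absent from KO mice is shown beside the 2 other members of its family, since all share the seed that pairs with target transcripts. Capitals mark bases 2 to 8, the seed, read 5′ to 3′ from RefSeq on GRCm38.p6.
mmu-miR-29a-3p: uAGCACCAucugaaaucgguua
mmu-miR-29b-3p: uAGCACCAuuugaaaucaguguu
mmu-miR-29c-3p: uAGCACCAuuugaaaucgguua
The miR-29a sequence lies at chr6:31062673-31062694 on the minus strand. miR-29b-3p comes from chr6:31063025-31063047 on the minus strand and from chr1:195037091-195037113 on the plus strand. miR-29c-3p lies at chr1:195037600-195037621 on the plus strand.

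The complement of the seed, TGGTGCT, was searched on the sense strand of the longest annotated 3′-UTR of each gene in GENCODE M21. Of the 10 genes, 1 held it. That gene was Pou4f3, with 1 match at bases 271 to 277 of a 3′-UTR of 1239 bases. Among 20932 genes with a 3′-UTR, 2751 (13.1%) held at least 1 match, so a share of 1 in 10 is near that of genes at large. Prox1 had no match in the longest 3′-UTR of the group, 5185 bases. A match describes the letters of a transcript and not a working site.

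The levels of the 10 genes spanned a wide range. On the FPKM scale, which allows genes to be compared per length, Notch1 was highest with a mean of 20.4 over 8 libraries, followed by Jag1 (7.51), Sox2 (6.06), Fgfr3 (5.85), Lgr5 (5.32), Gfi1 (4.98), Prox1 (4.88), Pou4f3 (2.54), Barhl1 (0.472) and Atoh1 (0.0986). Between neighbours in this order, the ranges over libraries were separate only between Notch1 and Jag1 and between Pou4f3 and Barhl1. Prox1 was above Pou4f3, and Barhl1 above Atoh1, within each of the 8 libraries although their ranges overlapped. From Jag1 down to Prox1, the order changed from library to library, and Gfi1 was above Prox1 in 4 of 8.

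**Figure D1:**
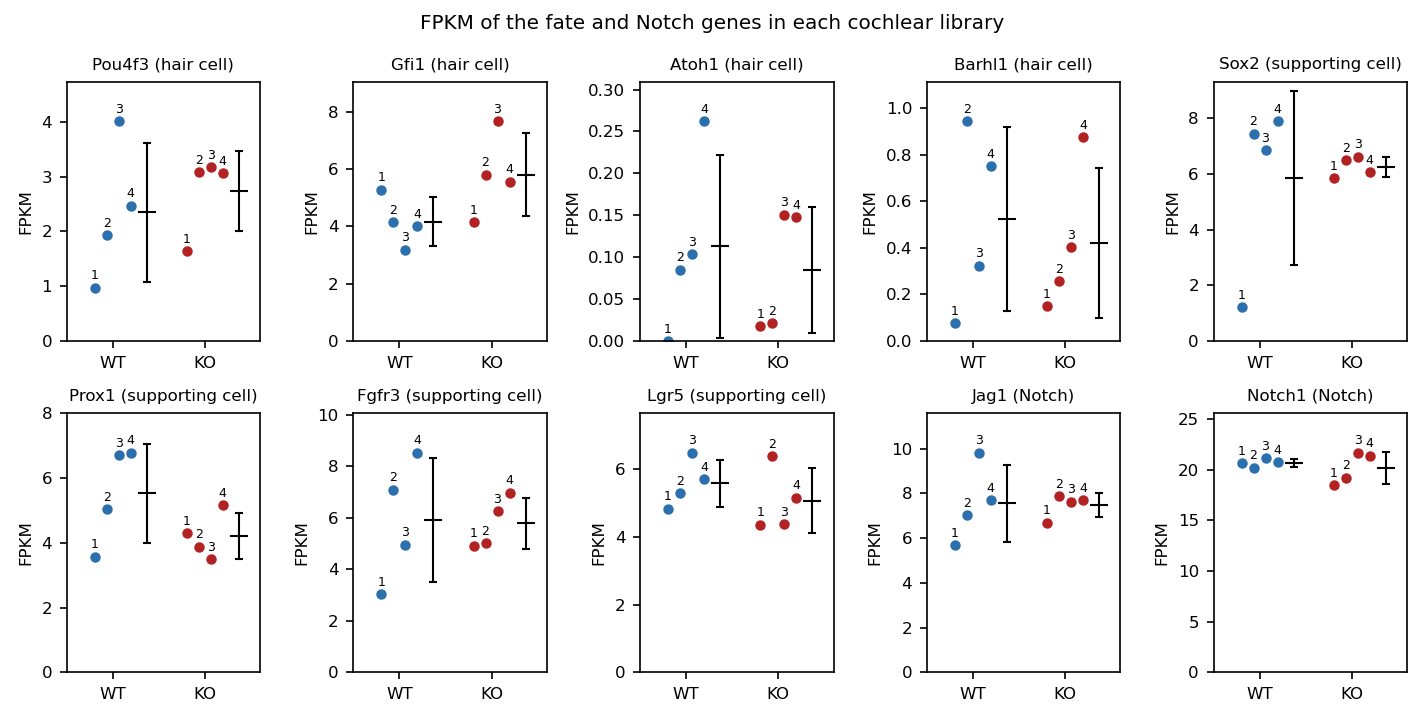
FPKM (vertical axes, from 0) of each of the 10 genes in the WT (blue) and KO (red) libraries, with the replicate number beside each point and the mean ± SD (n = 4 libraries) as a black bar. WT and KO points overlap in every panel, WT1 lies far below the other libraries for Sox2, and Notch1 stays between 18.5 and 21.7.

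Genotypes were compared by limma on log2(FPKM + 0.1) over the 14990 genes whose mean FPKM reached 0.5. A gene was called at an unadjusted two-sided p-value under 0.05, the threshold of the study. Of the 10 genes, 8 passed the filter and 0 of these 8 were called, against 767 (5.12%) of all tested genes (4.61% higher and 0.507% lower in KO). This split of 691 higher and 76 lower depended on the scaling, with 402 and 363 after median-ratio scaling and 378 and 547 after quantile normalization, under each of which 1 member, Prox1, was called. At p-values adjusted over all tested genes, 0 members and 0 genes in all passed in limma. WT and KO ranges overlapped for each of the 10 genes, as they did for all but 3.50% of the tested genes. Log2 fold changes had a median of 0.10 over all tested genes and of 0.03 over the 8 tested members. The widest and the narrowest of the 95% confidence intervals were those of Sox2, -0.84 to 1.61, and Notch1, -0.29 to 0.22. The width for Sox2 rested on WT1, without which its standard error was 0.12 in place of 0.54, against 0.10 for Notch1. With 4 against 4 libraries, the exact permutation test can reach a p-value of 0.0286.

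**Figure D2:**
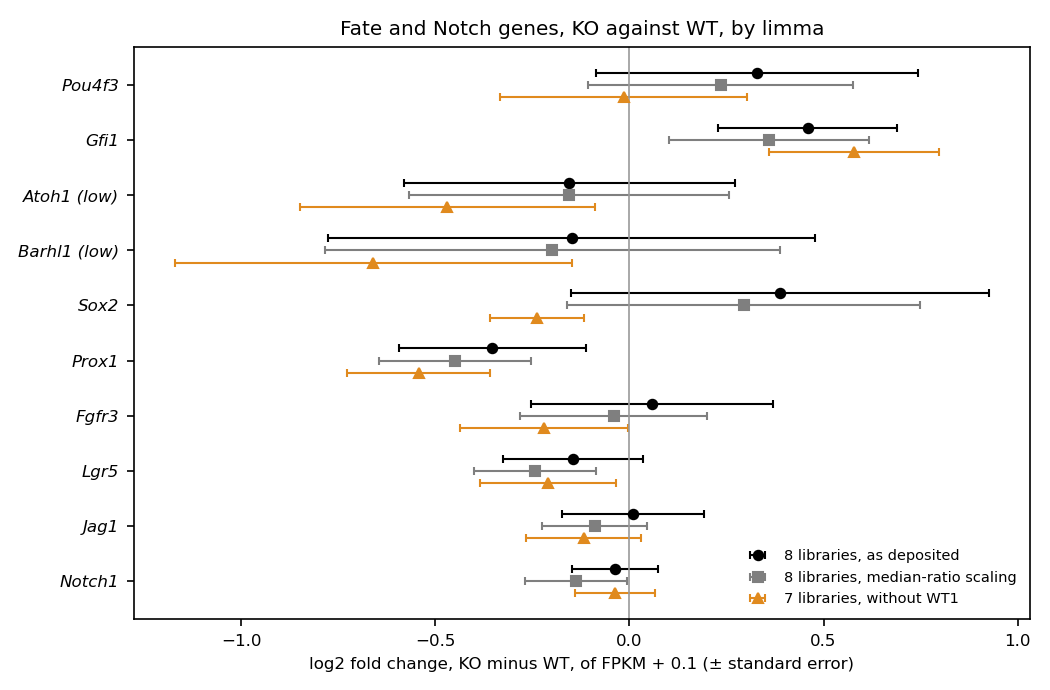
Log2 fold change (KO minus WT, of FPKM + 0.1, horizontal axis) with its standard error for the 10 genes in limma, from all 8 libraries as deposited (black), after median-ratio scaling (grey) and without WT1 (orange). Atoh1 and Barhl1 are marked low because their mean FPKM was under 0.5. The estimates of Sox2, 0.39 and -0.24, lie on opposite sides of 0 with and without WT1, whereas those of Gfi1 stay above and those of Prox1 below 0.

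Among the hair cell factors, Pou4f3 is the POU-domain factor whose loss leaves hair cells to die early. It is annotated at chr18:42394539-42397249 on the plus strand of GRCm38. Its FPKM was 0.974, 1.93, 4.02 and 2.47 in WT1 to WT4 and 1.64, 3.08, 3.18 and 3.07 in KO1 to KO4. WT1 and KO1 were the low libraries, WT3 was the highest, and KO2 to KO4 lay close together. WT libraries averaged 2.35 ± 1.27 and KO libraries 2.74 ± 0.736 (± SD, n = 4 each). The log2 fold change was 0.33 ± 0.42 (SE) with a 95% interval of -0.62 to 1.27, and it missed the threshold (limma p = 0.451, adjusted p = 0.973, two-sided exact permutation p = 0.543). Without WT1 the estimate was -0.02. Pou4f3 and the summed hair cell markers were both lowest in WT1, then KO1, and highest in WT3, also when the markers were averaged as log2 values. Over the 8 libraries, the genes most like it in log2 level were Pdcl (Pearson r = 0.99) and Amigo3 (r = 0.985), out of 14126 genes whose mean FPKM reached 1.

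Gfi1 is a zinc finger repressor needed by outer hair cells, and it is also a known regulator of neutrophil and lymphoid precursors. The gene lies at chr5:107716657-107726036 on the minus strand. Its FPKM was 5.28, 4.16, 3.19 and 4.02 in WT1 to WT4 and 4.15, 5.81, 7.68 and 5.57 in KO1 to KO4. KO2, KO3 and KO4 exceeded every WT library, and KO1 lay within the WT range. WT libraries averaged 4.16 ± 0.859 and KO libraries 5.80 ± 1.45 (± SD, n = 4 each), with a log2 fold change of 0.46 ± 0.23 (SE) and a 95% interval of -0.07 to 0.99. The difference missed the threshold (limma p = 0.0798, adjusted p = 0.947, exact permutation p = 0.0857), although Gfi1 had the smallest p-value of the members. Without WT1 it was 0.58 (limma adjusted p = 0.206), and without KO1 it was 0.61 (limma adjusted p = 0.944), past the unadjusted threshold in both. Without WT1, 2 of 9 tested members were called, Gfi1 higher and Prox1 lower, against 19.5% of all tested genes (7.40% lower).

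Gfi1 did not run with the other hair cell factors. WT1, lowest for Pou4f3, Atoh1 and Barhl1, was the highest WT library for Gfi1. WT3, highest for Pou4f3, was the lowest of all for Gfi1. In WT3 the summed FPKM of the neutrophil and marrow genes was 51.8, with Ctsg, a neutrophil granule protease, listed at 0, and in KO3, where Gfi1 was highest, it was 5128. The 4 KO libraries had 1692 to 5128 and the WT libraries other than WT1 had at most 916. Both the list and Gfi1 were thus lowest in WT3 and high in KO3, but in WT1 the list was at its highest (9539) and Gfi1 lay below KO2, KO3 and KO4. The part of marrow cells in the Gfi1 values was not tested. The genes most like Gfi1 were Fam110a (r = 0.99) and Impa2 (r = 0.98) over the 8 libraries.

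Atoh1, the bHLH factor that starts hair cell differentiation, was close to the limit of detection. The gene, of 1 annotated exon, is at chr6:64729125-64731245 on the plus strand. It was listed at 0 in WT1, and its FPKM was 0.0850, 0.103 and 0.262 in WT2 to WT4 and 0.0179, 0.0212, 0.151 and 0.148 in KO1 to KO4. From the estimated depth, these values correspond to about 0, 4, 5 and 12 fragments in WT1 to WT4 and 1, 1, 8 and 7 in KO1 to KO4, and a count of 0 in WT1 allows up to 0.0535 FPKM (3 fragments, for counting error only). High and low values occurred in both groups, with WT4 highest. At its mean FPKM of 0.0986 Atoh1 did not pass the filter. In limma without the filter, the log2 fold change was -0.15 ± 0.43 (SE) (p = 0.726, exact permutation p = 0.743).

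Barhl1 is a homeobox factor that maintains hair cells, and it is also known in cerebellar granule neurons. It lies at chr2:28907679-28916668 on the minus strand. Its FPKM was 0.0748, 0.943, 0.323 and 0.751 in WT1 to WT4 and 0.149, 0.255, 0.402 and 0.876 in KO1 to KO4. WT2, WT4 and KO4 stood above the other 5 libraries, which held at most 0.402, and this split crossed the genotypes. WT libraries averaged 0.523 ± 0.396 and KO libraries 0.421 ± 0.321 (± SD, n = 4 each), under the filter over all 8 libraries. Without the filter, limma gave a log2 fold change of -0.15 ± 0.63 (SE) (p = 0.818, exact permutation p = 0.857).

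The same 3 libraries were high for genes of cerebellar granule neurons. Gabra6, a GABA receptor subunit of these neurons, had FPKM of 23.6, 10.7 and 16.4 in WT2, WT4 and KO4, was listed at 0 in WT1 and had 0.499 to 2.54 in the others. Cbln3, a cerebellin, had FPKM of 29.5, 12.4 and 19.8 in those 3 libraries and at most 2.77 elsewhere. These 2 genes were the most like Barhl1 over the 8 libraries (r = 0.99 for each). En2 and Barhl2 of the same list were also listed at 0 in WT1, and Barhl2 in WT3. Of the 8 genes of this list that passed the filter, 0 were called between genotypes. Without WT2, WT4 and KO4, a choice made after the values had been seen, the log2 fold change of Barhl1 was 0.38 (limma adjusted p = 0.947). The part of brain tissue in the Barhl1 values was not tested.

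**Figure D3:**
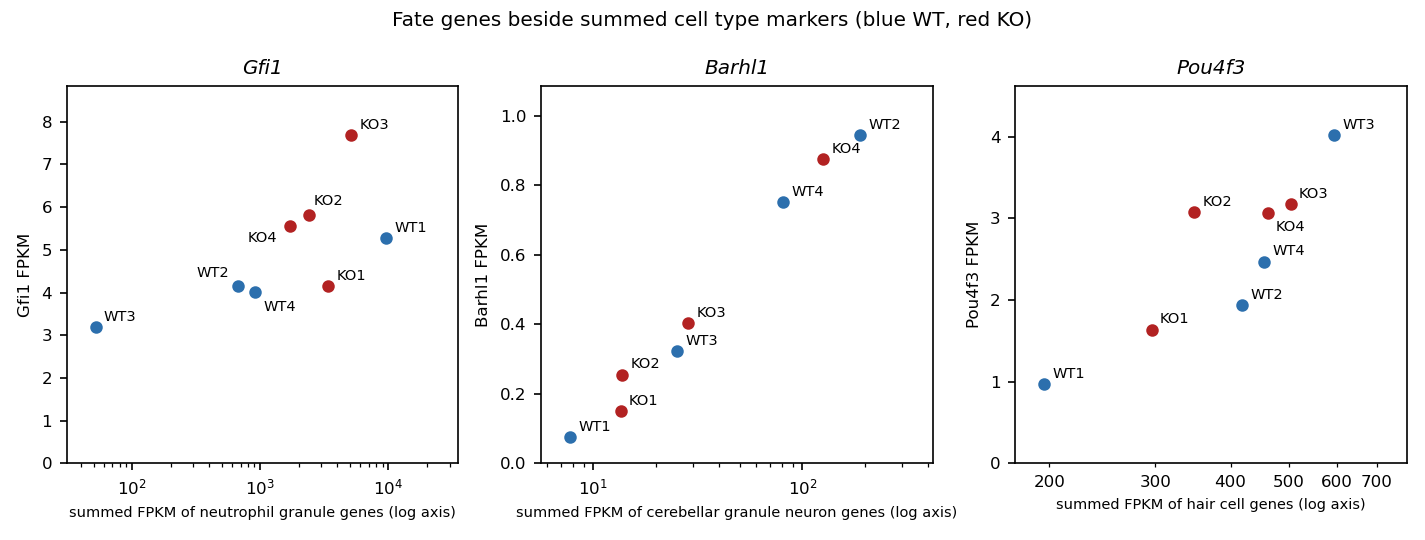
FPKM of Gfi1, Barhl1 and Pou4f3 (vertical axes, from 0) against the summed FPKM of neutrophil and marrow, cerebellar granule neuron and hair cell genes in the same library (horizontal log axes), for WT (blue) and KO (red). Barhl1 is highest in WT2, KO4 and WT4, where the cerebellar sum is 80.5 or more, and Pou4f3 is lowest in WT1 and highest in WT3, as are the hair cell genes.

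Among the supporting cell genes, Sox2, the SRY-box factor of prosensory and supporting cells, varied most. The gene, of 1 exon, is at chr3:34650405-34652461 on the plus strand. Its FPKM was 1.22, 7.45, 6.85 and 7.90 in WT1 to WT4 and 5.86, 6.50, 6.61 and 6.06 in KO1 to KO4. WT1 lay far under all others, at about 66 estimated fragments against 284 to 350, and WT2 to WT4 lay above all 4 KO libraries. The SD on the log2 scale was 1.25 in WT and 0.08 in KO. WT libraries averaged 5.85 ± 3.12 and KO libraries 6.26 ± 0.358 (± SD, n = 4 each), and the log2 fold change was 0.39 ± 0.54 (SE) (limma p = 0.490, adjusted p = 0.977, exact permutation p = 1.0). Its sign rested on WT1, and without that library the estimate was -0.24 (limma adjusted p = 0.316). Aarsd1 and Arhgap22 were most like Sox2 (r = 0.996 and 0.994), and both shared the low value in WT1, 1.65 against 9.02 to 11.9 FPKM for Aarsd1.

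Prox1 is a homeobox factor of pillar and Deiters' cells. It lies at chr1:190117564-190171006 on the minus strand. Its FPKM was 3.58, 5.04, 6.72 and 6.79 in WT1 to WT4 and 4.31, 3.88, 3.51 and 5.17 in KO1 to KO4. KO3 was the lowest library and WT3 and WT4 were the highest, but WT1 lay among the KO libraries. WT libraries averaged 5.53 ± 1.53 and KO libraries 4.22 ± 0.714 (± SD, n = 4 each), with a log2 fold change of -0.35 ± 0.24 (SE) and a 95% interval of -0.90 to 0.20 (limma p = 0.179, adjusted p = 0.947, exact permutation p = 0.229). After median-ratio scaling of the libraries, which moved the median of all genes from 0.10 to 0.00, Prox1 was at -0.45 (limma adjusted p = 0.894), after quantile normalization at -0.50 (limma adjusted p = 0.794), and without WT1 at -0.54 (limma adjusted p = 0.179), each past the unadjusted threshold only. Prox1 and Gfi1 ran opposite to each other over the libraries (r = -0.78, n = 8), the most negative correlation among all pairs of members. Prox1 was most like Dnajc5b (r = 0.99) and Scn3a, a neuronal sodium channel subunit (r = 0.97).

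Fgfr3, the FGF receptor whose signalling shapes pillar cells, is at chr5:33721674-33737068 on the plus strand. Its FPKM was 3.04, 7.09, 4.95 and 8.53 in WT1 to WT4 and 4.92, 5.02, 6.24 and 6.97 in KO1 to KO4. The KO values all fell inside the WT range, with WT1 lowest and WT4 highest. The WT mean was 5.90 ± 2.41 and the KO mean 5.79 ± 0.993 (± SD, n = 4 each), slightly lower in KO, whereas the mean log2 values differed by 0.06 ± 0.31 (SE), slightly higher in KO, with a 95% interval of -0.65 to 0.77 (limma p = 0.858, exact permutation p = 0.943), and the sign of this difference changed with the scaling (-0.04 after median-ratio scaling). Fgfr3 and Barhl1 shared their order closely (r = 0.92, among the highest of all pairs of members), both high in WT2, WT4 and KO4. The genes most like Fgfr3 were Gm10037 (r = 0.99) and Ripor3 (r = 0.98).

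Lgr5, an R-spondin receptor of the Wnt pathway that marks supporting cells with progenitor capacity, is at chr10:115450311-115587780 on the minus strand. Its FPKM was 4.83, 5.28, 6.48 and 5.69 in WT1 to WT4 and 4.36, 6.38, 4.36 and 5.15 in KO1 to KO4. KO1 and KO3 lay just under every WT library, and KO2 lay near the top. WT libraries averaged 5.57 ± 0.702 and KO libraries 5.06 ± 0.953 (± SD, n = 4 each), with a log2 fold change of -0.14 ± 0.18 (SE) and a 95% interval of -0.56 to 0.27 (limma p = 0.445, exact permutation p = 0.371). Rwdd4a and Pcbd1 were the genes most like it (r = 0.97 for each).

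A wider list of 11 supporting cell genes was read beside these. Of the 10 that passed the filter, 1 was called, Tectb, which encodes the tectorial membrane protein beta-tectorin. Tectb FPKM was 0.824, 1.58, 1.95 and 1.40 in WT1 to WT4 and 0.361, 0.462, 0.554 and 0.936 in KO1 to KO4. Its log2 level fell by 1.19 ± 0.36 (SE) in KO (limma p = 0.0101, unadjusted, exact permutation p = 0.0571), with KO4 above WT1. Of all 14990 tested genes, 76 (0.507%) were called lower, and 363 and 547 were after median-ratio and quantile scaling, where Tectb fell by 1.28 and 1.58. With a pseudocount of 1, Tectb fell by 0.62. The summed FPKM of the list was 280 to 609 in WT and 330 to 472 in KO. Gjb2 (101 to 241 FPKM) and Gjb6 (79.9 to 160 FPKM) made up most of this sum in every library. The median log2 fold change of the list was -0.12, against 0.10 for all tested genes. Of the 18 hair cell markers, 0 were called, and their median was 0.03.

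Of the Notch genes, Jag1 varied moderately and Notch1 little. Jag1, the Notch ligand of the prosensory domain and of supporting cells, is at chr2:137081456-137116644 on the minus strand. Its FPKM was 5.68, 7.03, 9.82 and 7.68 in WT1 to WT4 and 6.69, 7.87, 7.62 and 7.70 in KO1 to KO4. All KO values lay inside the WT range, bounded by WT1 and WT3. WT libraries averaged 7.55 ± 1.73 and KO libraries 7.47 ± 0.533 (± SD, n = 4 each), with a log2 fold change of 0.01 ± 0.18 (SE) and a 95% interval of -0.41 to 0.43 (limma p = 0.962, exact permutation p = 0.943). Its sign was opposite to that of the FPKM means, and it changed with the scaling (-0.09 after median-ratio scaling). Jag1 ran with Pou4f3 over the libraries (r = 0.94), the highest correlation among all pairs of members. The genes most like Jag1 were Sacm1l (r = 0.99) and Rasef (r = 0.98).

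Notch1, the receptor, is at chr2:26457903-26516663 on the minus strand. Its FPKM was 20.6, 20.2, 21.1 and 20.7 in WT1 to WT4 and 18.5, 19.2, 21.7 and 21.4 in KO1 to KO4. The WT values fell between the lower pair and the upper pair of KO libraries, so 2 KO libraries lay below and 2 above all WT libraries. The SD on the log2 scale was 0.03 in WT, the smallest of the 10 genes, and 0.11 in KO. WT libraries averaged 20.7 ± 0.383 and KO libraries 20.2 ± 1.58 (± SD, n = 4 each), with a log2 fold change of -0.04 ± 0.11 (SE) (limma p = 0.747, exact permutation p = 0.514). In WT1, where Sox2 and Pou4f3 were at their lowest, Notch1 was at its usual level. The genes most like Notch1 were B4galt3 (r = 0.93) and Abl1 (r = 0.92).

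The rest of the pathway was read from lists by role. Of 7 further ligands and receptors, 6 passed the filter and 0 were called, with a median log2 fold change of 0.22. The 3 with the smallest p-values were the ligands Dll1 (0.51, limma p = 0.151, exact permutation p = 0.2) and Jag2 (0.79, limma p = 0.325, exact p = 0.8) and the receptor Notch3 (0.28, limma p = 0.464, exact p = 0.886). Jag2, the ligand of nascent hair cells, had an FPKM of 0.560 in WT1 and of 6.0 to 8.42 elsewhere, and was thus low in WT1, as Sox2 was. Notch3 had 2.31 in WT1 and 6.03 to 7.98 elsewhere.

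Of 16 genes that modify, cut or sort Notch and its ligands, 2 rose in KO and 0 fell, and all 16 passed the filter. Of all tested genes, 4.61% were called higher and 3.50% had separate groups. Adam17, a membrane protease that can cleave Notch and sheds other proteins, had FPKM of 9.31, 10.2, 9.83 and 9.23 in WT1 to WT4 and 13.7, 13.8, 13.6 and 12.2 in KO1 to KO4. Its groups were separate, and the log2 fold change was 0.46 ± 0.12 (SE) (limma p = 0.00334, adjusted p = 0.922, exact permutation p = 0.0286, the smallest it can give here). Mfng, a Fringe glycosyltransferase that tunes the response of Notch to its ligands, had FPKM of 1.77, 2.43, 2.47 and 3.12 in WT1 to WT4 and 3.87, 4.41, 4.77 and 3.64 in KO1 to KO4. Its groups were separate too, with a log2 fold change of 0.76 ± 0.21 (SE) (limma p = 0.00608, adjusted p = 0.947, exact permutation p = 0.0286). Lfng, the Fringe of supporting cells, was at 0.48 ± 0.22 (SE) and missed the threshold (limma p = 0.0567, exact permutation p = 0.0857), with KO values of 7.07 to 9.84 FPKM and WT values of 4.46 to 7.79. Adam17 and Mfng are also expressed by blood cells, and the marrow and B cell lists given above were higher in 4 KO libraries than in 3 of the WT libraries. The part of these cells in the 2 differences was not tested. Neither difference passed the adjusted threshold.

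The longest annotated 3′-UTR of Adam17, of 1767 bases, held 2 matches to TGGTGCT, at chr12:21324272-21324278 and chr12:21324193-21324199 on the minus strand of GRCm38. They are shown with neighbouring bases, 5′ to 3′ in the sense of the transcript, and capitals mark the match to the miR-29 seed.
Adam17 match at 3′-UTR base 998: gagtgggagagTGGTGCTgccatc
Adam17 match at 3′-UTR base 1077: acctctggctcTGGTGCTtcaaga
Mfng and Tcf3 held 0 matches, and 13.1% of all genes with a 3′-UTR held at least 1.

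Of 12 nuclear partners and targets of Notch, 12 passed the filter and 0 were called, with a median log2 fold change of 0.05. The list holds Rbpj, the DNA-binding partner, at 0.14 (limma p = 0.312, exact permutation p = 0.2), the coactivator Maml2 at -0.23 (limma p = 0.125, exact p = 0.0571), and the Hes and Hey targets. Of 16 partners in the FGF and Wnt pathways, 14 passed the filter and 0 were called, with a median of -0.01. Fgf10, a ligand of the cochlear floor, was at -0.46 (limma p = 0.0969, exact permutation p = 0.143), the feedback inhibitor Spry4 at 0.27 (limma p = 0.219, exact p = 0.171), and Fgfr1, a receptor of the prosensory domain, at 0.20 (limma p = 0.247, exact p = 0.143).

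Of 22 other regulators of sensory cells, 19 passed the filter and 1 rose. That gene was Tcf3, whose product pairs with Atoh1 and other bHLH factors and also acts in B cell development. Tcf3 FPKM was 10.5, 17.4, 10.02 and 17.3 in WT1 to WT4 and 21.6, 25.7, 19.5 and 19.7 in KO1 to KO4, in separate groups, with a log2 fold change of 0.69 ± 0.22 (SE) (limma p = 0.0135, adjusted p = 0.947, exact permutation p = 0.0286). With each library left out in turn, Tcf3 stayed past the unadjusted threshold, at a limma p-value of at most 0.0415 (without KO2). WT1 and WT3, the low libraries for Tcf3, were also left out together after values had been seen. That choice by itself makes the difference smaller. The log2 fold change was then 0.31 and missed the threshold (limma adjusted p = 0.357). The B cell lineage genes that rose in KO included Rag1, with 0.494 to 2.33 FPKM in WT and 3.17 to 8.86 in KO. The summed FPKM of the B cell list, however, was 47.4 in WT1 and 33.6 in KO4. In these libraries Tcf3 was at 10.5 and 19.7 FPKM. The part of B lineage cells in the Tcf3 difference was not tested. Eya1, a transcriptional cofactor in otic development, also had separate groups, 20.0 to 23.7 FPKM in WT and 16.5 to 19.3 in KO, but missed the threshold in limma with a log2 fold change of -0.24 ± 0.12 (SE) (p = 0.080, exact permutation p = 0.0286). Rfx3, a factor of hair cell maintenance, was at -0.26 (limma p = 0.168, exact permutation p = 0.143). Over the 5 lists together, 3 of 67 tested genes (4.48%) were called, a share near the 5.12% of all tested genes. After median-ratio scaling, 6 of 67 (8.96%) were called against 5.10% of all tested genes, and after quantile normalization 6 of 67 (8.96%) against 6.17%, with 3 higher and 3 lower in both. The 3 lower genes were Eya1, Fgf10 and Rfx3, and Eya1 and Fgf10 were also called lower without WT1. In that setting 8 of 67 (11.9%) were called, 4 higher and 4 lower, against 19.5% of all tested genes (7.40% lower).

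**Figure D4:**
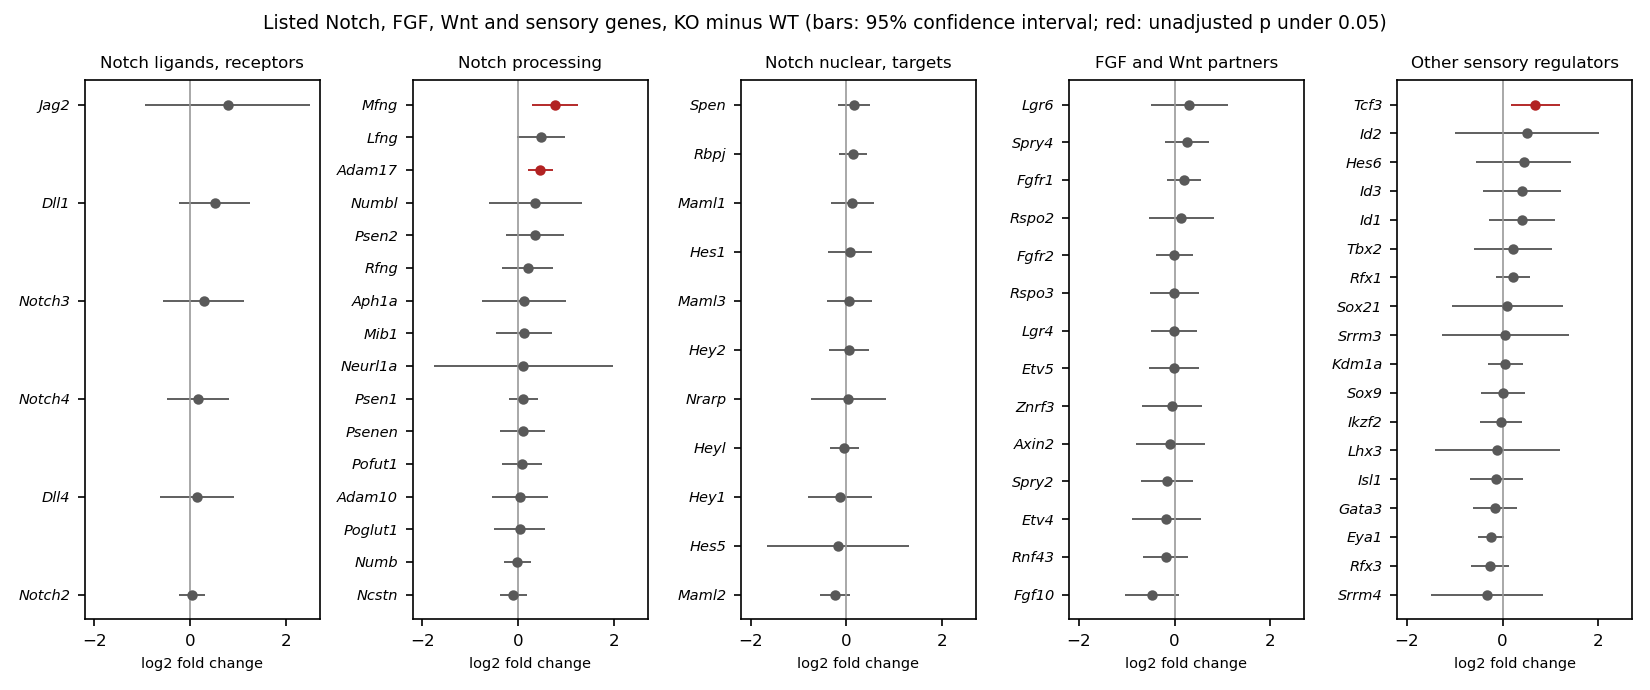
Log2 fold change (KO minus WT, of FPKM + 0.1, horizontal axes) with its 95% confidence interval for 65 of the 67 tested genes of the 5 lists, in 1 panel per list and ordered by fold change. Intervals of Mfng, Adam17 and Tcf3, in red for an unadjusted limma p-value under 0.05, lie above 0, and the intervals of the other 62 genes include it.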

How the data were processed

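The authors mapped paired-end reads of strand-specific, ribosomal RNA-depleted cochlear libraries with Hisat2 and deposited a table of FPKM by gene. The tool and annotation behind the FPKM are not given in the sources used here. The processing notes name mm9, but of 21895 gene identifiers, 21760 were in GENCODE M21 and 19771 had its GRCm38 coordinates, which are used here. Genotype and replicate came from the sample labels. Log2(FPKM + 0.1) was fitted with limma 3.58.1 in R 4.3.3 (genotype only, mean-variance trend) over 14990 genes whose mean FPKM reached 0.5, with Benjamini-Hochberg adjustment over all of them. For single genes, a two-sided exact permutation test over libraries was added. FPKM carry no depth, so fragments were estimated from steps between low values of genes with 1 transcript. The fit was tested on simulated data.

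The 10 genes and the lists were chosen with earlier results of these data known. Named genes were the 10 members, in each pathway list the 3 genes with the smallest p-values, per member the 2 genes with the highest Pearson r over the 8 libraries among 14126 genes whose mean FPKM reached 1, and markers needed for a list. Tectb, Rag1 and the cerebellar genes were named after their values were seen. Of the genes in the pathway lists, 2 are counted but not reported singly here. The paper gives n = 3 per group for its RNA-seq comparison and does not say which of the deposited libraries these were. Alternatives were a pseudocount of 1, no filter, a minimum mean FPKM of 1, median-ratio and quantile scaling, no trend, the replicate number as a block, replicate numbers 1 to 3, leaving out each library, and, added after seeing the data, leaving out WT1 and WT3 or WT2, WT4 and KO4.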

Additional observations from a re-analysis of the deposited data

Results flagged for a closer look

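In 2 of the 20 combinations of gene and genotype examined, 1 library lay far from the other 3 on the log2(FPKM + 0.1) scale, by a gap beyond Dixon's 95% critical value for 4 samples. Chance alone gives this in about 1 in 20 groups. Sox2 in WT1 was one, with a gap of 0.922 of the range, at 1.22 FPKM against 6.85 to 7.90 in WT2 to WT4. Pou4f3 in KO1 was the other, with a gap of 0.947 of the range, at 1.64 FPKM against 3.07 to 3.18 in KO2 to KO4.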

How the results depend on the processing

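At the adjusted threshold, 0 members and 0 pathway genes passed in all 19 settings run. Gfi1 stayed higher, and Prox1 and Lgr5 lower, in KO throughout, and Adam17 and Mfng were called throughout. Median-ratio and quantile scaling called 1 member, Prox1 (-0.45 and -0.50), and 6 pathway genes (3 in each direction) where 3 had been called, and turned Fgfr3 (-0.040 and -0.095) and Jag1 (-0.090 and -0.11) negative. They split the calls over all genes into 402 higher and 363 lower, and 378 and 547, against 691 and 76. Without WT1 and WT3, 8 of 67 pathway genes (11.9%) were called, Tcf3 not among them, against 2430 of all genes (16.1%). In that setting Sox2 (-0.29) and Fgfr3 (-0.43) were negative. Without WT2, WT4 and KO4, 5 of 67 pathway genes (7.46%) and 636 of all genes (4.27%) were called, Atoh1 (0.10) and Barhl1 (0.38) were positive and Jag1 was -0.018. At the adjusted threshold, 3 genes passed with no filter, 1 with replicate numbers 1 to 3 and 1 without WT2, WT4 and KO4.

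Leaving out 1 library at a time gave log2 fold changes of -0.015 to 0.63 for Pou4f3, 0.32 to 0.61 for Gfi1, -0.47 to 0.15 for Atoh1, -0.66 to 0.20 for Barhl1, -0.24 to 0.63 for Sox2, -0.54 to -0.24 for Prox1, -0.22 to 0.27 for Fgfr3, -0.26 (without KO2) to -0.071 (without WT3) for Lgr5, -0.12 to 0.14 for Jag1 and -0.072 to 0.0042 for Notch1. It called 0 to 2 members, 3 to 8 pathway genes and 347 to 2922 genes, with 0 to 1 at the adjusted threshold. Over all genes, the extremes were without KO3 (347, and 377 without KO2) and without WT1 (2922, of which 1810 were higher). Without WT1, 2 of 9 members (22.2%) and 8 of 67 pathway genes (11.9%) were called, against 19.5% of all tested genes. The cause of these shifts was not tested.

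WT and KO libraries share replicate numbers, and deviations of same-numbered libraries correlated at 0.42, -0.24, -0.17 and 0.21 across genes. Differently numbered libraries were not correlated for comparison, so these values cannot show whether the numbers pair the libraries. With the replicate block, 0 members, 3 pathway genes and 838 genes were called. Atoh1 rested on 0 to 12 estimated fragments per library.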
